A study of Mus musculus with 3 samples.

Results

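The genes described here were 10 regulators of apoptosis, 4 anti-apoptotic (Bcl2, Bcl2l1, Mcl1, and Birc3) and 6 pro-apoptotic (Bax, Bak1, Bid, Bcl2l11, Pmaip1, and Bbc3), among 33597 genes measured on all arrays. Their probes were found by gene name among the probes that were not controls, and all 10 genes were present, with 14 probes. Bone marrow-derived macrophages (BMDMs) were grown from femurs and tibias of C57BL/6J mice with M-CSF, and were stimulated for 20 h with CpG, with IFN-g plus a blocker of the IL-10 receptor (IFN-g+IL-10RB), or with CpG, IFN-g, and the blocker together (Triple). CpG is a DNA ligand of the Toll-like receptor TLR9, IFN-g is the cytokine interferon-γ, and the blocker is an antibody called αIL-10R in the study. Each condition had 1 microarray, so that no difference below has a replicate check or a p-value. No array of unstimulated BMDMs was used here, and IFN-g was given only together with the blocker, so that their parts cannot be told apart. The labels do not say how many mice gave the cells.

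Proteins of the BCL-2 family decide whether the outer membrane of mitochondria stays closed. BAX and BAK, the effectors, form pores in that membrane and thereby release cytochrome c, whereas BCL-2, BCL-XL (encoded by Bcl2l1), and MCL-1 hold them in check, and the BH3-only proteins BID, BIM (Bcl2l11), NOXA (Pmaip1), and PUMA (Bbc3) relieve this check or activate the effectors directly. cIAP2, the product of Birc3, belongs to the inhibitor of apoptosis proteins (IAPs), and acts as a ubiquitin ligase at TNF receptors, and Birc3 is a known target gene of NF-κB. Macrophages depend on such survival proteins, and the stimuli that activate them can also kill them. Survival of the cells was not measured on these arrays.

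The probe sequences for Birc3 and Bcl2l11 are shown because the 2 probes of these genes gave folds of different size. The sequences are from the scanner files, 5′ to 3′, with positions on mm9, and no part is capitalized. For Birc3, the brighter probe matched transcript NM_007464 and lay at chr9:7854409-7854468 (minus strand), and the dimmer one matched BC011338 and lay at chr9:7856162-7856221 (minus strand).
Birc3, brighter probe: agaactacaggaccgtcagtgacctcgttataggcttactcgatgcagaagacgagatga
Birc3, dimmer probe: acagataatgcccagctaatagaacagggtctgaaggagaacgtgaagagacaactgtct
For Bcl2l11, the 60 bases of each probe were spread over a longer stretch of the plus strand, 11096 bases at chr2:127972893-127983988 for the brighter probe (NM_207680) and 682 bases at chr2:127954736-127955417 for the dimmer one (ENSMUST00000129206), so that the ends of each probe lie in different exons.
Bcl2l11, brighter probe: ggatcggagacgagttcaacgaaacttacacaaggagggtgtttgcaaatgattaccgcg
Bcl2l11, dimmer probe: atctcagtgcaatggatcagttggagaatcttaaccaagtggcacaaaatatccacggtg

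Values are the processed signals of the scanner software, intensities after subtraction of a fitted background. For the brightest probe of each gene, the software's own error was between 10.0% and 10.24% of the signal. All 10 of these probes were well above background, the software's test for detection, on all arrays. Folds were taken after each array had been scaled to its 75th percentile, and probes spotted more than once gave an SD of 0.13 (log2) for a fold between 2 single spots. Differences beyond 2 such SD, 0.25 (log2), are called larger than the spot noise. This noise does not contain differences between cultures. A signal of 1 probe is not compared with that of another, because brightness also depends on the probe. In these bulk samples, fewer cells of a type and less RNA per cell cannot be told apart.

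Among the anti-apoptotic genes, Birc3 had by far the widest range. Its signal was 1618 with CpG, 530 with IFN-g+IL-10RB, and 3625 in Triple, so that all 3 arrays were separated by more than the spot noise, with Triple the highest and IFN-g+IL-10RB the lowest. Relative to IFN-g+IL-10RB, Birc3 was 6.99-fold higher in Triple (log2 fold 2.81) and 3.0-fold higher with CpG (1.59), and Triple exceeded CpG 2.33-fold (1.22). The dimmer probe kept this order, with signals of 169, 77.6, and 295 in the same order of arrays, and gave smaller folds of 3.89, 2.14, and 1.82.

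The 3 BCL-2 proteins that bind the effectors showed no such differences. Bcl2 had signals of 279 with CpG, 464 with IFN-g+IL-10RB, and 384 in Triple. It was 1.70-fold lower with CpG than with IFN-g+IL-10RB (log2 fold −0.76), whereas Triple and IFN-g+IL-10RB differed by less than the spot noise. Bcl2l1 had signals of 35330, 41155, and 33373, and its log2 folds over IFN-g+IL-10RB were −0.27 in Triple and −0.24 with CpG, close to the limit of the noise. A second, dimmer Bcl2l1 probe, left out because its surroundings on the CpG array were marked as an outlier, read 560, 678, and 565. Mcl1, whose short-lived product is needed for the survival of many blood cells, had signals of 46056, 60095, and 44082. Its log2 folds over IFN-g+IL-10RB were −0.42 in Triple and −0.41 with CpG, and a second probe gave −0.31 and −0.52. Bcl2l1 and Mcl1 were therefore brightest with IFN-g+IL-10RB, although for Bcl2l1 the difference from CpG was less than the spot noise. By their brightest probes they were nearly equal on the other 2 arrays. The direction of that small difference depended on the processing. The second Mcl1 probe gave a log2 fold of 0.21 for Triple over CpG.

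**Figure D1:**
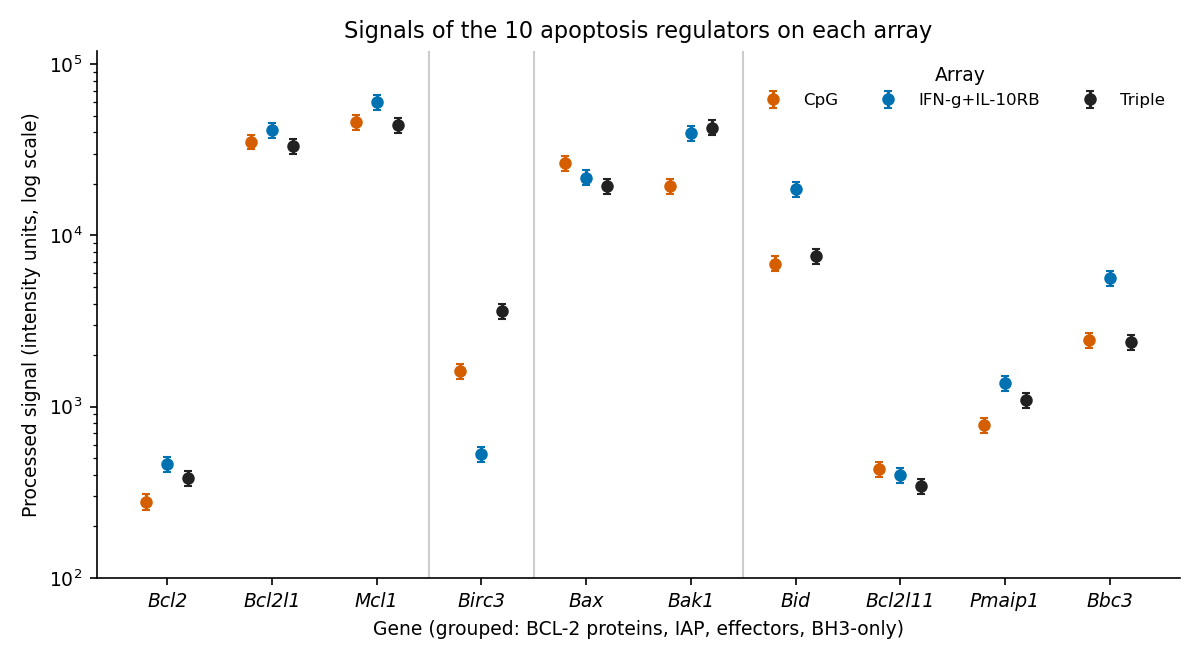
Processed signal of the brightest probe of each gene (log axis, intensity units) on the CpG, IFN-g+IL-10RB, and Triple arrays, 1 array each, with bars for the software's error. Birc3 is lowest with IFN-g+IL-10RB and highest in Triple, Bid and Bbc3 are highest with IFN-g+IL-10RB, and Bak1 is lowest with CpG.

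The effectors differed from each other. Bak1 had signals of 19402 with CpG, 39473 with IFN-g+IL-10RB, and 42703 in Triple. The arrays with IFN-g were the high ones, and they differed by less than the spot noise (log2 fold 0.14 for Triple over IFN-g+IL-10RB, which turned to −0.03 under spike-in scaling). Compared with CpG, Bak1 was 2.29-fold higher in Triple (log2 fold 1.19), and CpG was 2.07-fold lower than IFN-g+IL-10RB (−1.05). The latter value lay at the edge of the 2-fold threshold and was −0.999 when the percentile was taken over all probes. Bax had signals of 26354, 21804, and 19411, with the CpG array highest. Its log2 fold was −0.39 for Triple over CpG, 0.25 for CpG over IFN-g+IL-10RB, and −0.14 for Triple over IFN-g+IL-10RB, and no comparison was past 2-fold.

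Of the BH3-only genes, Bid and Bbc3 had nearly the same profile, high with IFN-g+IL-10RB and low on both arrays with CpG. Bid, whose product links death receptors to mitochondria after cleavage by caspase-8, had signals of 6854 with CpG, 18602 with IFN-g+IL-10RB, and 7614 in Triple. It was 2.39-fold lower in Triple (log2 fold −1.26) and 2.76-fold lower with CpG (−1.47) than with IFN-g+IL-10RB, and Triple and CpG differed by 0.21 (log2), less than the spot noise. The single spot of Bid lay in the first 48 of the 384 rows of the array, where 8.20% (Triple) and 5.24% (CpG) of genes detected on every array were lower past 2-fold than with IFN-g+IL-10RB, compared with 8.18% and 4.73% elsewhere. Bbc3, a p53 target that encodes PUMA, had signals of 2460, 5664, and 2372. It was 2.34-fold lower both in Triple (−1.22) and with CpG (−1.23), and the log2 fold of Triple over CpG was 0.0035.

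Pmaip1 followed the same direction with smaller differences. Its signals were 780 with CpG, 1371 with IFN-g+IL-10RB, and 1097 in Triple, which placed Triple between the other arrays, at log2 folds of −0.29 from IFN-g+IL-10RB and 0.55 from CpG. Bcl2l11 varied least among the BH3-only genes, with signals of 433, 400, and 342 and log2 folds between −0.28 and 0.09. Its dimmer probe was well above background only on the CpG array (48.5, compared with 19.4 and 24.5), where it was at least 1.79-fold higher than with IFN-g+IL-10RB and at least 1.77-fold higher than in Triple. This probe and the brighter one therefore did not give the same picture of Bcl2l11 with CpG.

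Across the 10 genes, IFN-g+IL-10RB was the array with the highest scaled signal for 6 (Bcl2, Bcl2l1, Mcl1, Bid, Pmaip1, and Bbc3), CpG for 2 (Bax and Bcl2l11), and Triple for 2 (Birc3 and Bak1). The highest array exceeded the next by more than the spot noise only for Mcl1, Bid, Pmaip1, Bbc3, and Birc3. For Bcl2, Bcl2l1, Bax, Bak1, and Bcl2l11 it did not. How often each array was the highest among all genes was not computed. Of 30 log2 folds, 19 were larger than the spot noise, 6 of 10 for Triple over IFN-g+IL-10RB, 7 of 10 for CpG over IFN-g+IL-10RB, and 6 of 10 for Triple over CpG. Among all genes tested, those detected on at least 1 of the 2 arrays, the same limit was passed by 61.2%, 55.3%, and 61.4%, respectively, so that the shares of the 10 genes were near the background.

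**Figure D2:**
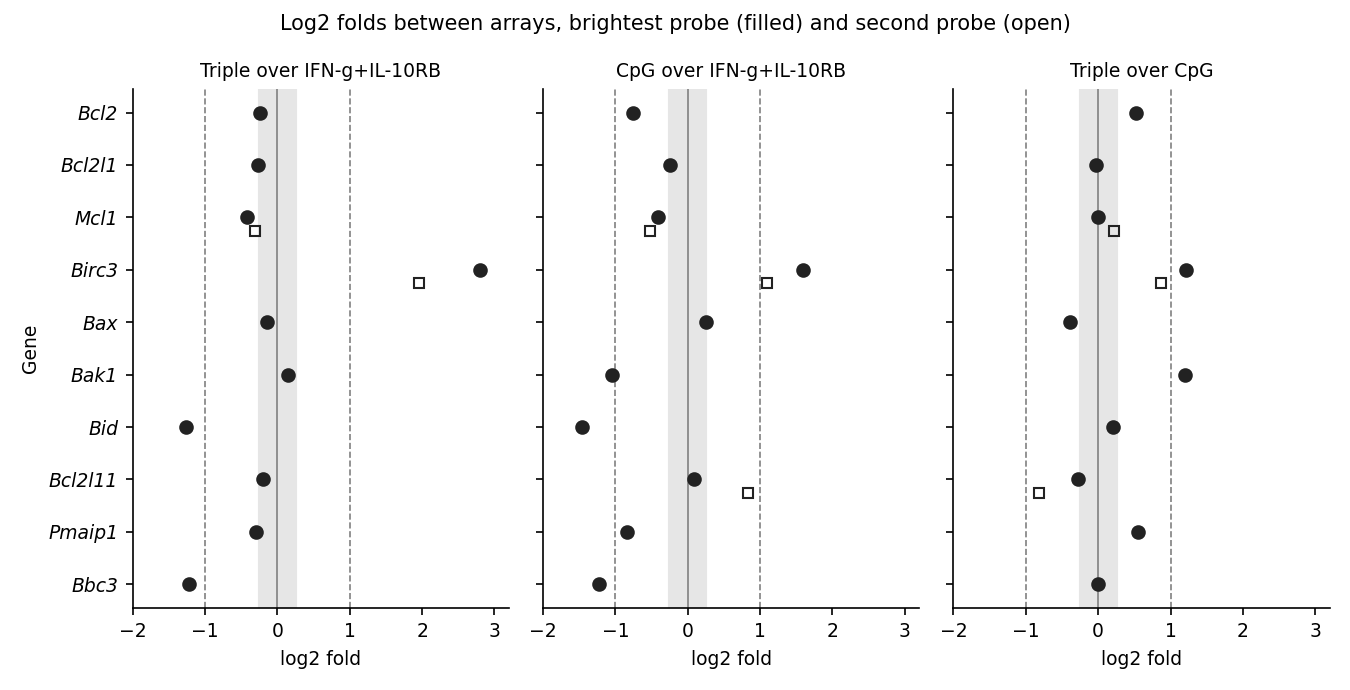
Log2 folds in the 3 comparisons for the brightest probe (filled circles) and the second probe (open squares) of each gene. Dashed lines mark 2-fold and the grey band 2 SD of the spot noise (0.25). Birc3 is to the right of 2-fold in all 3 panels by its brighter probe, Bid and Bbc3 are to the left in the first 2 panels, and Bak1 is outside 2-fold in the last 2.

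The comparison of Triple with IFN-g+IL-10RB asks what CpG added. At the 2-fold threshold 1 of 10 genes was higher (Birc3) and 2 were lower (Bid and Bbc3), compared with 6.57% and 9.31% of the 18063 genes tested and 15.9% in either direction. The median log2 fold was −0.26 for the 4 anti-apoptotic genes and −0.24 for the 6 pro-apoptotic genes, and −0.05 for all genes tested. The anti-apoptotic median without Birc3, over the 3 BCL-2 proteins, was −0.27. The median over the 4 BH3-only genes was −0.76, with Bid at −1.26, Bbc3 at −1.22, Pmaip1 at −0.29, and Bcl2l11 at −0.19.

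For CpG alone compared with IFN-g+IL-10RB, 1 of 10 genes was higher (Birc3) and 3 were lower (Bid, Bbc3, and Bak1), beside 5.06% and 5.84% of 18280 genes and 10.9% in either direction. The median log2 fold was −0.33 for the anti-apoptotic and −0.94 for the pro-apoptotic genes, with 0.0038 for all genes tested. This comparison uses the same IFN-g+IL-10RB array as the first, so an error in that array would enter both.

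Triple compared with CpG alone asks what IFN-g and the blocker added. Here 2 of 10 genes were higher (Birc3 and Bak1), 1 of each class, and 0 were lower, beside 7.47% and 8.34% of 18335 genes and 15.8% in either direction. The median log2 folds were 0.26 for the anti-apoptotic and 0.11 for the pro-apoptotic genes, and −0.06 for all genes tested. All of these counts are of few genes, and with 1 array per condition no test of a class was made.

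The other genes of the pathway were taken from a list of 51, of which 47 were measured on all arrays and 42 were tested in each comparison. Of these, 4 were higher and 6 lower than 2-fold in Triple over IFN-g+IL-10RB, 3 were higher and 6 lower with CpG over IFN-g+IL-10RB, and 7 were higher and 4 lower in Triple over CpG. Among all genes tested the shares higher or lower were 15.9%, 10.9%, and 15.8%, respectively. The balance for Triple over IFN-g+IL-10RB depended on the processing. There were 6 higher and 4 lower in the authors' table, under median scaling, and with a percentile of all probes. In these settings Bcl2l2 and Diablo were gained and Dffb and Zmat3 lost. Quantile normalization and normexp background correction each gave 4 higher and 4 lower, and the mean of all probes gave 6 and 6. The median log2 folds of the list were −0.05, −0.06, and −0.04. In any comparison 14 of the 42 tested genes passed the threshold, compared with 23.4% of the 18812 genes tested in at least 1 comparison. Those reported here are named below. Fasl, Hrk, Bok, Trp53, Apaf1, Casp9, and Cycs are named besides them for their place in the pathway, after their values were seen.

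Bcl2a1, another anti-apoptotic gene of the BCL-2 family, known to be induced by NF-κB in myeloid cells, had the order of the arrays seen for Birc3. The probe named Bcl2a1d read 80645 with CpG, 21282 with IFN-g+IL-10RB, and 186335 in Triple, and the probe named Bcl2a1c read 8094, 1730, and 22818. Over IFN-g+IL-10RB they were 8.95-fold and 13.5-fold higher in Triple, and 3.72-fold and 4.6-fold higher with CpG. Mouse Bcl2a1 exists in near-identical copies that these probes may not separate, and Bcl2a1a and Bcl2a1b are not gene names of this array, so the copies are not told apart here.

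In the death receptor pathway 2 of 8 tested genes were higher in Triple over IFN-g+IL-10RB and 0 were lower, beside 6.57% and 9.31% of all genes tested. For CpG over IFN-g+IL-10RB 1 was higher and 1 lower (5.06% and 5.84% of all genes), and for Triple over CpG 3 were higher and 0 lower (7.47% and 8.34%). Cflar, which encodes c-FLIP, the inhibitor of caspase-8 at death receptors, had signals of 3023, 1088, and 10288 in the order CpG, IFN-g+IL-10RB, and Triple. It was 9.66-fold higher in Triple and 2.73-fold higher with CpG than with IFN-g+IL-10RB. Its 3 other probes gave log2 folds between 0.62 and 2.47 in Triple and between −0.41 and 0.75 with CpG, so that all of its probes were higher in Triple, while those for CpG differed in sign. Fas, the receptor of Fas ligand, read 975, 967, and 3466 and was 3.66-fold higher in Triple. Tnfsf10, which encodes the death ligand TRAIL and is known to respond to interferons, read 216, 3444, and 2264, and was 16.2-fold lower with CpG than with IFN-g+IL-10RB. Fas ligand (Fasl) was not well above background on any array.

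Among the other BCL-2 family genes, Bmf and Bcl2l14 had the largest differences. Bmf, a BH3-only gene, read 725 with CpG, 1059 with IFN-g+IL-10RB, and 80.6 in Triple, so that Triple was 12.9-fold below IFN-g+IL-10RB and 8.65-fold below CpG. Bcl2l14 read 9.70, 709, and 1227. It was not well above background with CpG, where it was at least 30.4-fold lower than with IFN-g+IL-10RB and at least 53.7-fold lower than in Triple. The BH3-only gene Hrk and the effector-like gene Bok were not well above background on any array.

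Birc5, which encodes survivin, an IAP known mainly for its part in cell division, read 14579, 16691, and 2138 and was 7.64-fold lower in Triple than with IFN-g+IL-10RB, and 2 other probes gave log2 folds of −2.95 and −3.03. The p53 target Trp53inp1 read 552, 1710, and 213 and was 7.86-fold lower in Triple, and Zmat3, also a p53 target, read 1253, 1061, and 487 and was 2.13-fold lower. Trp53 itself was inside 2-fold in all 3 comparisons, with log2 folds between −0.51 and −0.17.

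Dffb, the DNase that cuts DNA in apoptotic nuclei, read 61.2, 113, and 54.8 and was 2.03-fold lower in Triple, and the mitochondrial nuclease gene Endog read 871, 1715, and 1160 and was 2.0-fold lower with CpG, both at the edge of the threshold. Apaf1, Casp9, and Cycs, which make up the apoptosome and its trigger, were inside 2-fold in every comparison.

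**Figure D3:**
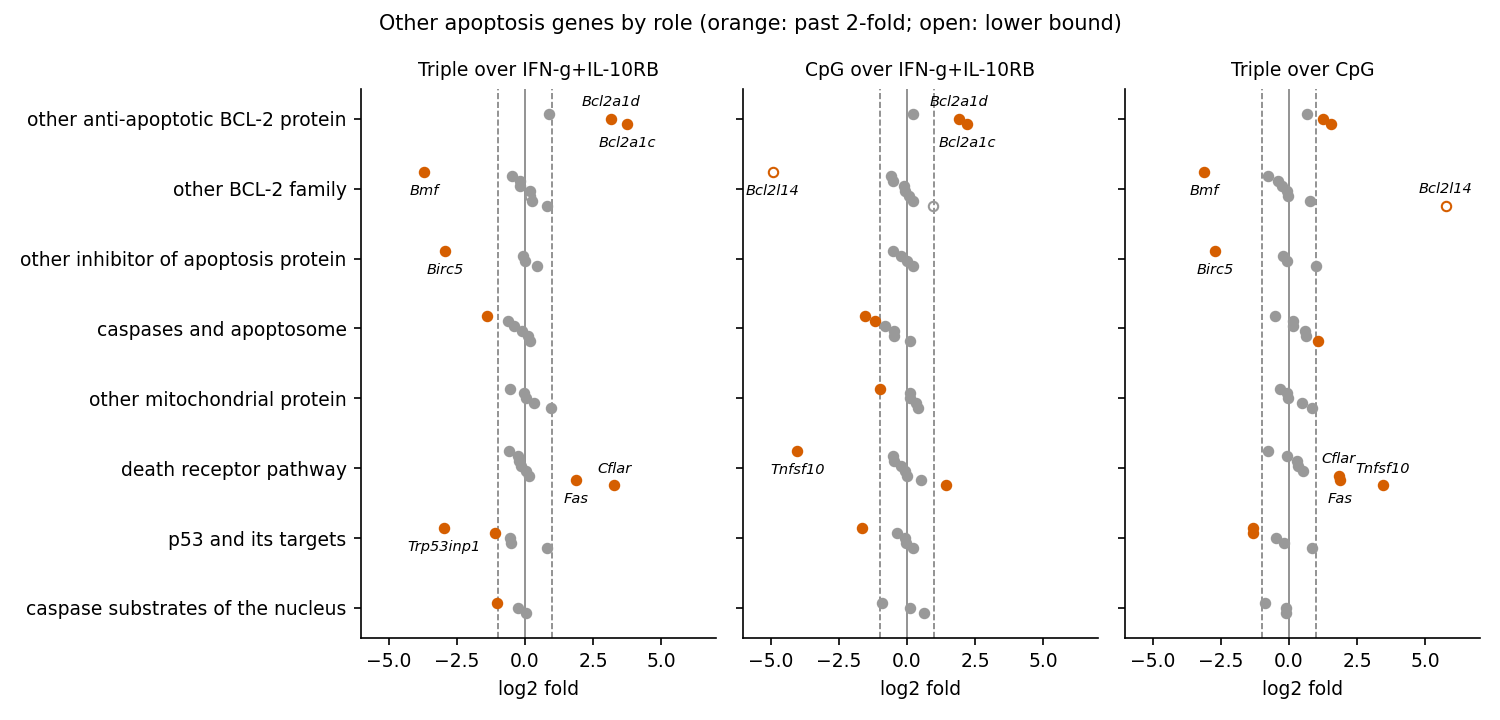
Log2 folds of the 42 other apoptosis genes tested in each comparison, 1 point per gene, grouped by role. Dashed lines mark 2-fold, orange points are past it, and open points are lower bounds. Bcl2a1 and Cflar are far to the right in Triple over IFN-g+IL-10RB and Bmf, Birc5, and Trp53inp1 far to the left. Most points of a role lie inside 2-fold, except for the other anti-apoptotic BCL-2 proteins, where 2 of 3 lie outside in every panel.

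Among 10487 genes with a gene symbol and a detected signal on every array, those closest to a given profile were found by the distance between the 3 log2 values, each gene centred on its mean. For Birc3 these were Rnd1, Tma16, and Marcksl1, at distances of 0.0867 to 0.129 (log2). For Bid they were Pfkm, Lair1, and Aldh1l1 (0.0121 to 0.0537), and for Bbc3 they were Msh3, Ppp1r3d, and Pard6g (0.0579 to 0.0818). Within a distance of 0.127, the SD of a fold between 2 single spots, lay 2 genes for Birc3, 8 for Bid, and 13 for Bbc3. This limit is not an SD of the distance itself, which combines 3 arrays. The counts therefore do not say how many genes the spot noise leaves inseparable. The profile of Rnd1 (681, 238, and 1651 in the order CpG, IFN-g+IL-10RB, and Triple) shows what such a likeness means, since it gave a log2 fold of 2.82 for Triple over IFN-g+IL-10RB. With 3 arrays a close profile is a description of these arrays.

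**Figure D4:**
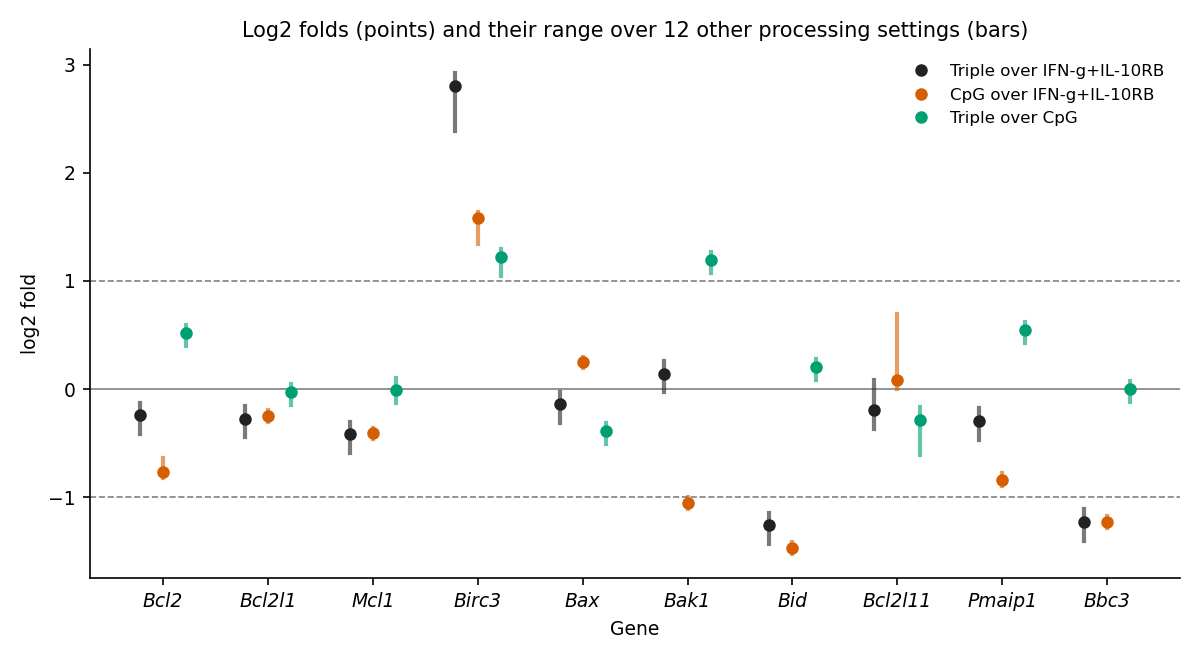
Log2 folds of each gene in the 3 comparisons (points) with the lowest and highest value over 12 other ways of processing (bars). The values for Birc3, Bid, and Bbc3 past 2-fold stay past it under every setting, whereas Bak1 for CpG over IFN-g+IL-10RB reaches −0.999. Without the filter, and with only NM_ probes, the values of all genes equal the points.

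All 5 macrophage markers measured (Emr1, Csf1r, Cd68, Itgam, and Fcgr1) were bright on every array, with signals between 10577 and 230482. Markers of other cell types were detected in part. Of the B cell list 2 of 4 genes were detected on each array, with summed signals of 879 for CpG, 270 for IFN-g+IL-10RB, and 170 for Triple, while its defining marker Ms4a1 was not well above background. Of the T cell list 2 of 5 were detected (summed signals between 974 and 1056), without Cd3d, Cd3g, and Cd8a. Of the neutrophil list 4, 4, and 3 of 5 were detected in the order CpG, IFN-g+IL-10RB, and Triple, with summed signals of 3765, 9420, and 4728, and Mpo was not well above background. The order of the sums was that of Ly6g (555, 7699, and 2658), whereas Elane (2839, 1615, and 1539) and S100a9 (58.0, 38.3, and 8.10) were highest with CpG and S100a8 (297, 55.7, and 517) was lowest with IFN-g+IL-10RB. Of the fibroblast list 2, 1, and 2 of 3 genes and of the dendritic cell list 0, 1, and 1 of 2 were detected, and 0 of 3 NK cell and 0 of 3 erythroid genes were. The part of such cells in the results was not tested. The arrays had 44.4% to 46.0% of spots well above background and 0 saturated spots. Culture wells cannot be told apart from the stimuli.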

How the data were processed

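Total RNA of 3 BMDM samples, 1 per condition, was labeled with Cy3 and hybridized to Agilent mouse arrays. The authors deposited scanner files made with Feature Extraction 10.10.1.1 (processed signal, an intensity, with an error on the same scale) and a table of log2 values, which matched log2 of the processed signal after subtraction of a constant for each array. Its column medians were between −4.38 and −4.26, and it was used as an alternative only.

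Control spots and spots marked as outliers (3.04% to 3.78%) were dropped, repeated spots were averaged as log2, and arrays were shifted by their 75th percentile, taken over 21233 probes detected (well above background) on every array, since on average 44.2% of probes were detected, under the limit of 50%. A gene was represented by its brightest probe. Dim signals were raised to the lowest detected signal of the array (23.8 to 26.7), which makes such folds lower bounds. Genes were called at 2-fold if the brighter array was well above background. Tradd, Vdac2, and the macrophage marker Lyz2 had outlier marks and were left out.

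The members and lists were chosen with earlier results of these data known. Named were all members, measured Bcl2a1 genes, and up to 15 other list genes past 2-fold (12 were, of which some are not reported here), and 3 closest genes for each of the 3 members with the widest range. With 1 array per condition no test was possible. The number of arrays limits the precision. The calculation was tested on simulated data for 33597 genes, with 200 changed by 2 (log2) in Triple over IFN-g+IL-10RB, of which 100% were recovered with 0 false calls. The simulated arrays otherwise held only the spot noise, without differences between cultures. This checks the calculation and does not give an error rate for the calls above. Python 3.11.15, numpy 2.4.6, pandas 2.3.3, matplotlib 3.10.9, R 4.3.3, and limma 3.58.1 (normexp with offset 50, quantile) were used.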

Additional observations from a re-analysis of the deposited data

How the results depend on the processing

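No paired analysis was possible because there were no replicate arrays. Of the 9 member folds past the 2-fold threshold, 8 remained so under all 12 alternatives, and the exception was Bak1 for CpG over IFN-g+IL-10RB. The alternatives were other scalings, normexp, the authors' table, no filter, outlier spots kept, the mean of all probes, only NM_ probes, and values relative to Actb. None of them used a dimmer probe alone. All 21 folds inside 2-fold stayed inside, but 5 of these changed sign under at least 1 alternative, those of Bak1 and Bcl2l11 for Triple over IFN-g+IL-10RB and of Bbc3, Bcl2l1, and Mcl1 for Triple over CpG. The smallest log2 folds of Birc3 under these alternatives were 2.38, 1.34, and 1.04 for Triple and CpG over IFN-g+IL-10RB and Triple over CpG. Its dimmer probe alone gave 1.96, 1.09, and 0.86 in the same order, the last of them inside 2-fold.

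Spike-in scaling, with 5 of 10 spike-in probes, moved the median of all detected genes in Triple over IFN-g+IL-10RB from −0.04 to −0.22 (the percentile over all probes moved it to 0.07), and the medians of the anti- and pro-apoptotic members to −0.43 and −0.42. A 3-fold threshold left 1, 1, and 0 members for Triple and CpG over IFN-g+IL-10RB and Triple over CpG, in place of 3, 4, and 2, and 5 and 6 list genes in the last 2 comparisons in place of 9 and 11, and a 1.5-fold threshold gave 20 list genes for Triple over CpG. Fewer or more genes follow from the threshold itself. Of 30 calls among list genes 22 were kept under the same alternatives, with detection on both arrays in place of values relative to Actb. The others included those of Endog, Dffb and Zmat3 (Triple over IFN-g+IL-10RB for the latter pair), Cflar (CpG over IFN-g+IL-10RB, with the mean of all probes) and both of Bcl2l14, which is detected on 1 side only. The cause of the other changes was not tested.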

Other observations

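Most tested list genes lay inside 2-fold in every comparison, and some of them were picked for naming here after their values were seen. Among the others, Bcl2l2 (log2 fold 0.89 for Triple over IFN-g+IL-10RB) and Bik (at least 0.96 for CpG over IFN-g+IL-10RB) lay nearer the threshold than Mdm2 below. Parp1 did too (−0.87 for Triple over CpG, where Mdm2 had its largest log2 fold, 0.83). Diablo, which encodes the mitochondrial protein SMAC that blocks IAPs, read 2398 with CpG, 2167 with IFN-g+IL-10RB, and 4171 in Triple, a log2 fold of 0.98 over IFN-g+IL-10RB, and a second probe gave 1.18. Birc2, the paralogue of Birc3 that encodes cIAP1, read 789, 1113, and 1499, so that unlike Birc3 it was lower with CpG than with IFN-g+IL-10RB (log2 fold −0.52), and it was 0.98 higher in Triple than with CpG. Mdm2, the ubiquitin ligase that restrains p53 and a p53 target itself, read 22698, 22845, and 38862, a log2 fold of 0.80 in Triple over IFN-g+IL-10RB, whereas the p53 targets Trp53inp1 and Zmat3 were lower there.

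The probes of Cdkn1a, a p53 target that encodes the cell cycle inhibitor p21, disagreed. The brightest gave a log2 fold of −0.53 for Triple over IFN-g+IL-10RB, the second −2.21, and the third 0.14. Bcl2l14 gave at least 5.75 and at least 3.63 (log2) for Triple over CpG by its 2 probes, with the dim array at its lower limit in both.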
